A study of Mus musculus with 12 samples.

Results

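Small nucleolar RNAs (snoRNAs) guide chemical modification and cleavage of ribosomal RNA, and in mammals most of them are cut out of the introns of host genes. The host genes Gas5, Taf1d, Snhg1, Snhg3, Snhg5, Snhg6, Snhg8 and Snhg12 were examined in epithelium dissected from mouse intestinal tumors and from the tissue beside them. A gene counted as measured when at least 1 probe set of the array was annotated to its symbol alone, and its brightest such probe set, by the mean of the 12 arrays, stood for it. By this rule 3 of the 8 genes were measured (Gas5, Taf1d and Snhg5), among 19938 genes in all. Snhg8 was covered only by a probe set shared with its snoRNA Snora24, and Snhg1, Snhg3, Snhg6 and Snhg12 were named by no probe set in the annotation used here. The host genes were chosen by the KO minus floxed differences of Gas5 and Taf1d on these same arrays, both high in KO, so the hosts' own differences between the genotypes are given below as a description, without a test.

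All mice were males of the C57BL6/J strain carrying APCmin/+, an inactivated copy of Apc that leads to intestinal adenomas, and were kept to 25 weeks of age unless weight loss ended the experiment earlier. In FSPCre-PPARB -/- mice (KO), Cre is driven by the fibroblast-specific protein promoter and deletes the floxed Ppard gene, which encodes the nuclear receptor PPAR-beta/delta, whereas the dissected tissue was epithelium. PPARB flox/flox littermates (floxed) were the controls. The arrays comprised 3 of KO tumor, 3 of floxed tumor, 2 of KO adjacent and 2 of floxed adjacent epithelium, plus 2 adjacent arrays whose labels contradict each other on genotype: conflict array 1 is KO by its title and floxed by its genotype characteristic, and conflict array 2 is the reverse. No label ties an array to an animal, so the spread between arrays may be partly technical.

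The values were log2 expression, and the arrays differed in signal. The weak arrays were floxed tumor arrays 1 and 2 and both floxed adjacent arrays, whose median correlations with the other arrays were 0.51 to 0.61, against 0.82 to 0.85 for the other 8 arrays. The SD of the values within an array was 1.04 to 1.09 in the 4 weak arrays and 1.49 to 1.57 in the others. Weak signal and the floxed genotype thus went together, and floxed tumor array 3 was the only floxed array with a full range of signal. Of 12 defining epithelial markers, 10 to 12 lay above the median of the unnamed probe sets on every array. The median of the unnamed probe sets (3.92 to 3.94 on KO arrays, 3.85 to 4.39 on floxed arrays) serves below as a mark of background. In these bulk samples, fewer cells of a type and less RNA per cell cannot be told apart.

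Gas5 (growth arrest-specific 5) is a noncoding RNA whose introns hold several box C/D snoRNAs, the class that guides ribose methylation. Its spliced RNA has no long reading frame and is degraded by nonsense-mediated decay when it is translated. Taf1d encodes a subunit of SL1, the factor that brings RNA polymerase I to the ribosomal RNA promoter, and also carries snoRNAs in its introns. Snhg1, Snhg3, Snhg5, Snhg6, Snhg8 and Snhg12 are noncoding host genes, several of which are transcribed from starts with a terminal oligopyrimidine tract, as ribosomal protein genes are. RefSeq places 32 snoRNA genes inside the 8 hosts, of which 7 had a probe set of their own.

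Because host genes of this kind are known for pyrimidine tracts at their starts, the sequence around the start of each measured host is shown with that of Snhg3, whose start holds a tract and which had no probe set. Each window runs 5′ to 3′ on the gene's strand, from 10 bases before the annotated start to 20 bases from it, and comes from RefSeq on GRCm38.p6. Capitals mark a C followed by at least 4 pyrimidines (C or T) and preceded by A or G, with its C within 10 bases of the start, searched on the gene's own strand.
Gas5, first start, chr1:161034591-161034620, plus strand: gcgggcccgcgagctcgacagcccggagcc
Gas5, second start, chr1:161035156-161035185, plus strand: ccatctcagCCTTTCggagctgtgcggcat
Taf1d, chr9:15306204-15306233, plus strand: gtgtactcacgcgagatttcgtccttgtcc
Snhg5, chr9:88522878-88522907, minus strand: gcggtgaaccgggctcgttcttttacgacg
Snhg3, chr4:132353667-132353696, minus strand: gaccacgcctgaCTTCCgggcgttacttaa

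The table held 8 starts of 7 hosts, 2 of them of Gas5 and none of Snhg6. The tract was found at 2 of the 8 (25.0%), the second start of Gas5 and that of Snhg3, against 7508 of 32851 starts in all genes (22.9%). With 8 starts, whether the hosts hold the tract more or less often than all genes cannot be told. The rule also passes over a run whose first C follows a C or T, as runs in the Snhg5, Snhg8 and Snhg12 windows do. In the Gas5 tract the first C lies 1 base before the annotated start.

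Gas5 was high in KO epithelium of both tissues by its highest-mean probe set, but not by all its probe sets (below). Its highest-mean probe set read 9.92, 9.14 and 8.75 in KO tumor, against 5.55, 6.80 and 7.69 in floxed tumor. In adjacent epithelium it read 10.14 and 10.45 in KO, against 5.60 and 5.69 in floxed. All KO arrays lay above all floxed arrays of the same tissue, and of all genes 13.2% did so in tumor and 32.1% in adjacent epithelium. The difference between KO and floxed was 2.59 ± 0.48 in tumor (log2, SE of the limma fit, n = 3 each) and 4.65 ± 0.59 in adjacent epithelium (n = 2 each). The conflict arrays stood apart from each other, at 7.24 in conflict array 1 and 9.96 in conflict array 2.

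By its highest-mean probe set Taf1d had the same order of groups. It read 8.19, 8.54 and 8.60 in KO tumor, against 4.26, 4.53 and 7.10 in floxed tumor. In adjacent epithelium it read 9.71 and 10.49 in KO, against 4.91 and 5.17 in floxed. The differences were 3.15 ± 0.61 in tumor and 5.06 ± 0.74 in adjacent epithelium. KO lay above floxed without overlap in either tissue, as was so for 13.2% of all genes in tumor and 32.1% in adjacent epithelium. The conflict arrays read 7.78 and 8.13, between the KO and floxed adjacent arrays.

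Snhg5 differed less between the genotypes. It read 5.28, 4.93 and 4.62 in KO tumor, against 3.49, 3.73 and 6.16 in floxed tumor, where floxed tumor array 3 lay above every KO tumor array. In adjacent epithelium it read 5.89 and 6.17 in KO, against 4.78 and 5.15 in floxed. Its KO values lay above its floxed values there without overlap, as was so for 32.1% of all genes. Its differences were 0.48 ± 0.57 in tumor and 1.06 ± 0.70 in adjacent epithelium, both less than 2 standard errors; it was above the unnamed median on 1 of 3 floxed tumor arrays and on every KO array. The conflict arrays read 5.37 and 5.17.

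**Figure D1:**
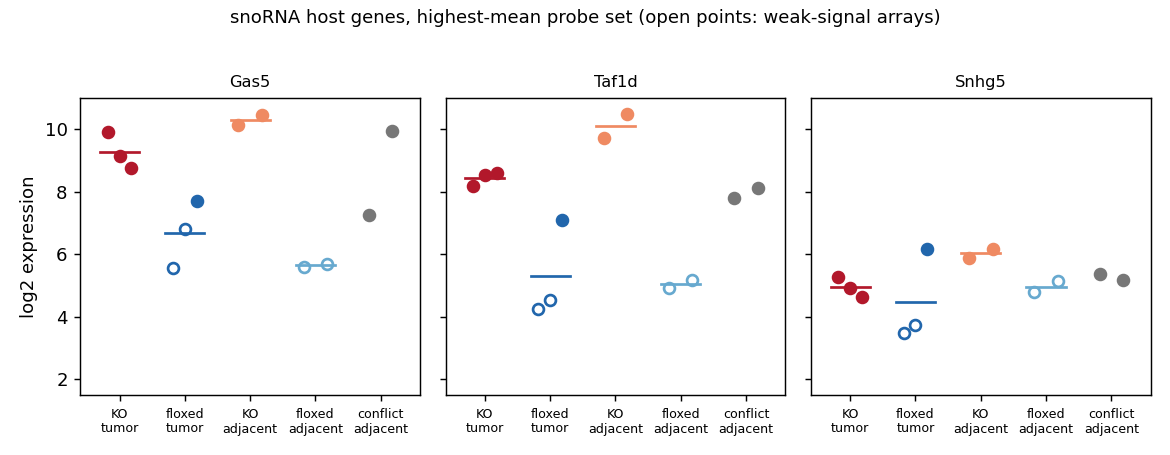
Log2 expression of Gas5, Taf1d and Snhg5 on each of the 12 arrays, by group, with a line at each group's mean; open points are the 4 arrays of weak signal. The KO points lie above the floxed points of the same tissue for Gas5 and Taf1d, while for Snhg5 floxed tumor array 3, at 6.16, lies above the KO tumor points.

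Against floxed tumor array 3 alone, the floxed array without weak signal, the mean of the KO tumor arrays was higher by 1.58 for Gas5 and by 1.35 for Taf1d, and for Snhg5 the difference was -1.22. For Gas5 and Taf1d this was smaller than the difference from all 3 floxed tumor arrays, and for Snhg5 the sign was opposite. Floxed tumor array 3 itself stood apart by markers of another tissue: its mean of 8 exocrine pancreas markers was 8.11, against 4.21, 6.81 and 4.21 in KO tumor arrays 1, 2 and 3 and 4.604 and 4.592 in floxed tumor arrays 1 and 2, and the part of this in the differences from it was not tested. In adjacent epithelium both arrays that are floxed in all labels were weak, so no such value could be had from them. Conflict array 1, which was not weak, is floxed by its characteristic but KO by its title. It read 7.24 for Gas5, 7.78 for Taf1d and 5.37 for Snhg5. The mean of the epithelial markers ranged from 6.54 to 7.34 in KO tumor and 5.37 to 7.97 in floxed tumor, and was 6.89 and 6.97 in KO adjacent against 5.15 and 5.46 in floxed adjacent epithelium. In adjacent epithelium the marker mean therefore moved with the genotype as well. The mean of 14 fibroblast and matrix markers was 4.82 to 5.05 in KO tumor against 4.49 to 4.82 in floxed tumor, and 5.11 to 5.16 in KO adjacent against 4.62 to 4.81 in floxed adjacent epithelium, without overlap. That of 8 endothelial markers was 4.61 to 4.68 in KO tumor against 4.28 to 4.46 in floxed tumor, and 4.75 on both KO adjacent arrays against 4.26 to 4.52 in floxed adjacent epithelium. The part of these markers in the hosts' differences was not tested.

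Over the whole table, 136 genes (0.682%) passed as higher and 79 (0.396%) as lower in KO tumor than in floxed tumor at an adjusted p under 0.05 (limma, Benjamini-Hochberg), and 782 genes passed in either direction with the replicate number as a block, against 215 (1.08%) without it. In adjacent epithelium 1209 genes (6.06%) passed without the block and 2450 with it. The median difference over all genes was -0.01 in tumor and -0.04 in adjacent epithelium. Among genes brighter than the median gene it was 0.29 in tumor and 0.41 in adjacent epithelium.

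The other probe sets of the same genes did not all show the genotype difference. Gas5 had 4 probe sets, with KO minus floxed differences in tumor of 2.59, 2.73, 0.76 and -1.07. None of the 4 was annotated to a Gas5 transcript of the RefSeq gene table, so what each reads within the gene is not known. The probe set that read 2.73 gave 7.19, 6.55 and 6.32 in KO tumor, against 3.76, 4.17 and 3.94 in floxed tumor, so that floxed tumor array 3 was as low as the weak arrays there. It lay above the unnamed median on every KO array, but on 1 of 3 floxed tumor and 0 of 2 floxed adjacent arrays, so the size of its difference is set in part by background. It gave 6.90 and 7.26 in KO adjacent, against 3.43 and 3.62 in floxed adjacent epithelium, and 3.76 and 7.06 in conflict arrays 1 and 2.

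The Gas5 probe set annotated to the most transcripts (4 accessions, against 1 for each other Gas5 probe set) behaved differently. It gave 6.98, 6.81 and 6.32 in KO tumor, against 4.99, 4.61 and 8.23 in floxed tumor, and 8.47 and 8.50 in KO adjacent, against 7.003 and 6.977 in floxed adjacent epithelium. In the conflict arrays it gave 9.17 and 7.38, with array 1 above array 2, the opposite order to the highest-mean probe set. The probe set with the lowest signal gave 3.20, 2.20 and 2.29 in KO tumor, against 2.99, 3.81 and 4.11 in floxed tumor, and was above the unnamed median on no KO array, so nothing is read from its difference. In tumor the separation of the genotypes in 2 of the probe sets was thus absent from the probe set with 4 accessions, and the dimmest probe set could not show it. Which part of the Gas5 gene each covers is not given in the annotation used here.

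**Figure D2:**
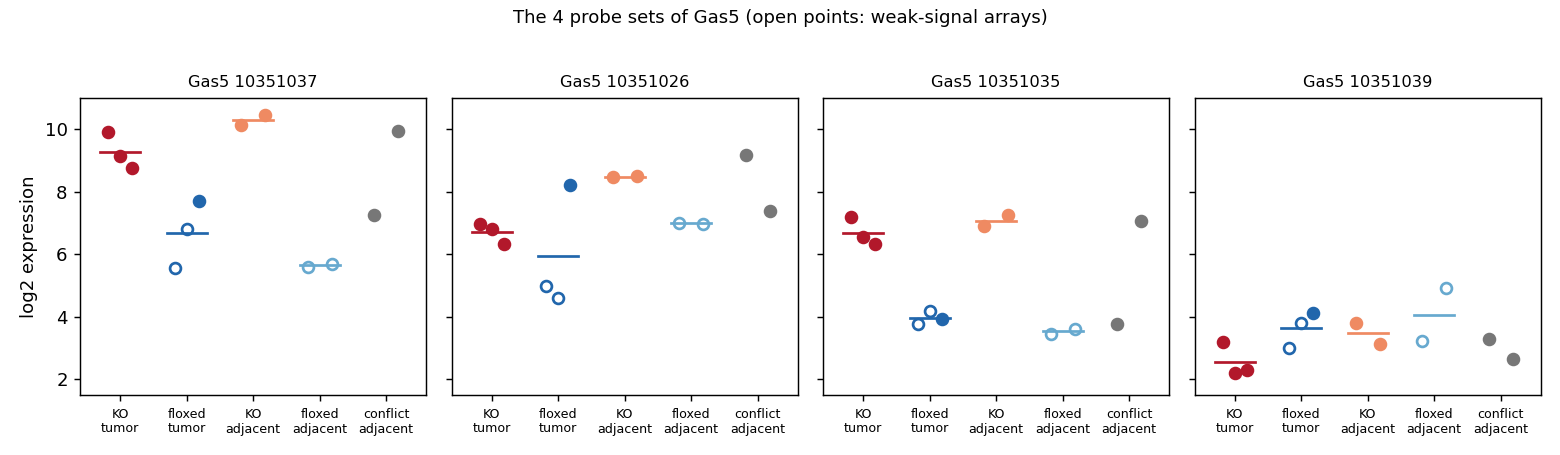
Log2 expression on each array for the 4 Gas5 probe sets, 1 panel each, by group, with a line at each group's mean and open points for weak-signal arrays. In 2 panels all KO tumor points lie above all floxed tumor points; in the panel of the probe set with 4 accessions floxed tumor array 3, at 8.23, is above every KO tumor array.

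Taf1d had 9 probe sets, of which 4 held identical values, leaving 6 distinct patterns. Their differences between KO and floxed in tumor were 3.15, 0.91, 0.68, 0.35, -0.94 and -1.27. Of the 9 probe sets, 1 was annotated to a Taf1d transcript of the RefSeq gene table. The probe set annotated to 11 accessions gave 6.18, 5.66 and 5.59 in KO tumor, against 4.89, 4.14 and 5.67 in floxed tumor, so the groups overlapped through floxed tumor array 3. In adjacent epithelium it gave 6.89 and 7.16 in KO, against 4.24 and 4.37 in floxed. Another probe set was highest in floxed tumor array 3, at 8.44, and conflict array 1, at 8.19, against 4.92 to 5.42 in KO tumor. These were also the arrays with the highest means of the exocrine pancreas markers, 8.11 and 7.72, against 4.21 to 6.81 on the other arrays, and the part of this was not tested. Over the 11 distinct probe sets of Gas5, Taf1d and Snhg5, those near background included, 8 differences were above 0 in tumor and 8 in adjacent epithelium. Against floxed tumor array 3 alone 5 were above 0. In RefSeq the span of Taf1d overlaps Cep295 and 4931406C07Rik, and the annotation does not say whether a Taf1d probe set also reads those genes.

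**Figure D3:**
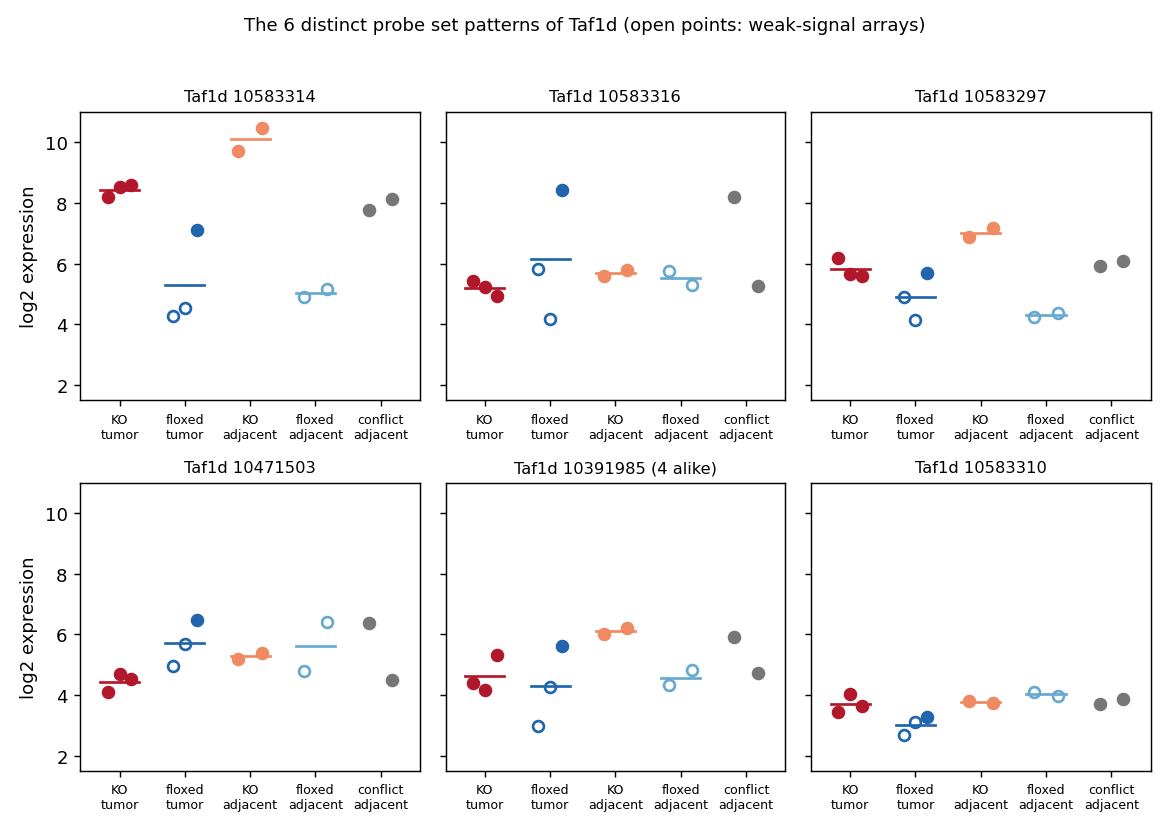
Log2 expression on each array for the 6 distinct patterns of the 9 Taf1d probe sets, by group, with a line at each group's mean and open points for weak-signal arrays. KO adjacent points lie well above floxed adjacent points in the panels of the highest-mean probe set and of the one with 11 accessions, and floxed tumor array 3 reaches 8.44 in another.

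The hosts that were not measured themselves could be followed in part through their snoRNAs, which were not used to choose the hosts. Being inside a host was read from RefSeq positions, without the strand. Snora44, an H/ACA snoRNA (the class that guides pseudouridylation) inside Snhg12, read 9.40, 9.47 and 8.92 in KO tumor, against 5.62, 3.74 and 8.75 in floxed tumor, and 9.01 and 9.28 in KO adjacent, against 4.94 and 6.42 in floxed adjacent epithelium. All KO arrays lay above all floxed arrays of the same tissue, as was so for 13.2% of all genes in tumor and 32.1% in adjacent epithelium. Floxed tumor array 3 missed the lowest KO tumor array narrowly. Its KO minus floxed differences were 3.23 ± 0.95 in tumor and 3.47 ± 1.17 in adjacent epithelium, with 2 of 3 floxed tumor arrays above the unnamed median. The second Snhg12 snoRNA with a probe set, Snora16a, read 3.11, 3.21 and 3.21 in KO tumor, against 3.57, 2.97 and 5.22 in floxed tumor. It was above the unnamed median on none of the KO arrays, so it could not show whether it followed Snora44.

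Snord87, a box C/D snoRNA inside Snhg6, was low in KO arrays. It read 3.11, 2.76 and 2.68 in KO tumor, against 4.18, 7.19 and 5.29 in floxed tumor. In adjacent epithelium it read 3.24 and 3.99 in KO, against 6.39 and 4.98 in floxed. All KO arrays lay below all floxed arrays of the same tissue, as was so for 13.9% of all genes in tumor and 35% in adjacent epithelium. It was above the unnamed median on 0 of 3 KO tumor and 1 of 2 KO adjacent arrays, so its level there is a bound and no size of difference is given.

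Snord47, the one snoRNA of Gas5 with a probe set, read 3.98, 3.91 and 3.30 in KO tumor, against 3.31, 2.85 and 4.98 in floxed tumor, and 3.97 and 3.79 in KO adjacent, against 3.57 and 6.45 in floxed adjacent epithelium. It was above the unnamed median on 1 array of each of these 4 groups, too few to be set against its host. Snord22, inside Snhg1, read 3.87, 4.06 and 3.91 in KO tumor, against 4.81, 4.70 and 6.69 in floxed tumor, and 4.36 and 4.75 in KO adjacent, against 4.20 and 4.15 in floxed adjacent epithelium. It was above the unnamed median on 1 of 3 KO tumor and 0 of 2 floxed adjacent arrays. Snora73a and Snora73b, both inside Snhg3 and close copies of each other whose probe sets may share targets, differed by 0.24 and 0.41 in tumor and by 2.15 and 1.87 in adjacent epithelium, where Snora73a was above the unnamed median on 1 of 2 floxed arrays. The probe set shared by Snora24 and its host Snhg8 was above the unnamed median on no KO array.

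**Figure D4:**
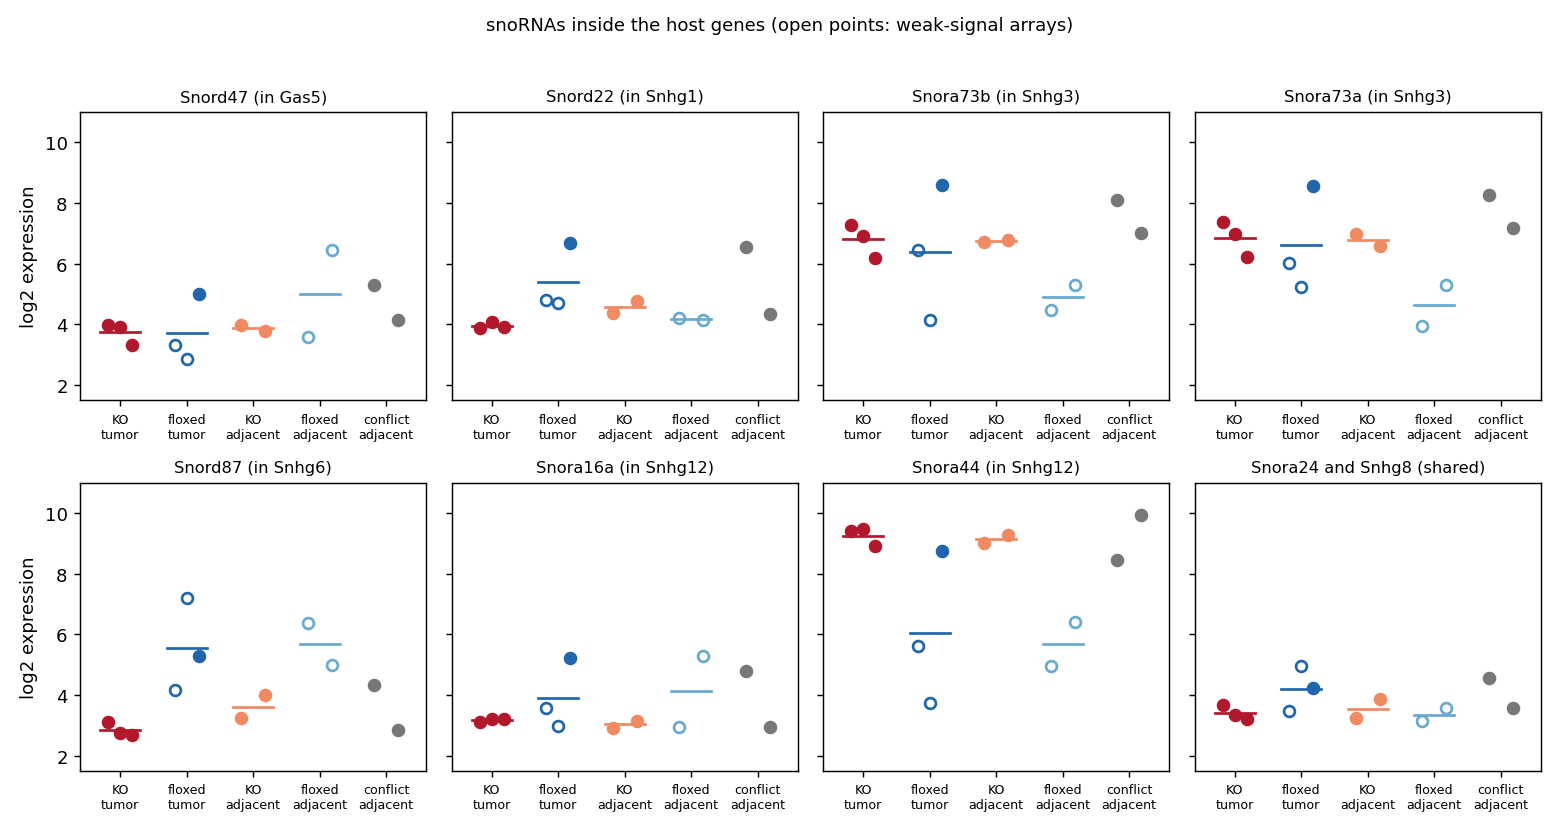
Log2 expression on each array for the snoRNAs inside the hosts, 1 panel each, by group, with a line at each group's mean and open points for weak-signal arrays. Snora44 is at or above 8.92 and Snord87 at or below 3.99 on every KO array, while Snord22 lies below the floxed arrays in KO tumor and above them in KO adjacent epithelium.

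Tumor was then set against adjacent epithelium. The rule that chose the hosts did not use this contrast, but it used the same KO arrays. The hosts and the gene lists were also chosen with earlier results of these data known, so the tests below are not independent of that choice. In KO mice the 3 hosts had lower values in tumor. Gas5 was at 8.75 to 9.92 in KO tumor against 10.14 and 10.45 in KO adjacent epithelium, Taf1d at 8.19 to 8.60 against 9.71 and 10.49, and Snhg5 at 4.62 to 5.28 against 5.89 and 6.17. None of the 3 overlapped between the tissues, as was so for 14.1% of all genes in this direction. The differences were negative in all 11 distinct probe sets of the hosts, from -1.78 to -0.07, although 1 of Gas5 and 1 of Taf1d were above the unnamed median on 0 and 1 of the 5 KO arrays. With the conflicting labels read by title, which adds conflict array 1 to KO adjacent epithelium, the differences were -0.0050 for Gas5, -0.88 for Taf1d and -0.87 for Snhg5; read by characteristic, which adds conflict array 2, they were -0.91, -0.9996 and -0.80.

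In the fit over the 10 arrays with 1 genotype in all labels, the tumor minus adjacent difference in KO was -1.02 ± 0.54 for Gas5, -1.66 ± 0.68 for Taf1d and -1.09 ± 0.64 for Snhg5 (SE). Unadjusted p-values of the limma fit were 0.0833, 0.0332 and 0.118, and adjusted p was 1 for each. No host passed, where 0.0201% of all genes did. This fit took its spread from all groups, the weak floxed arrays included.

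With the 5 KO arrays alone, none of them weak, the same differences had standard errors of 0.30, 0.24 and 0.20. Taf1d (adjusted p = 0.0202) and Snhg5 (adjusted p = 0.0418) then passed in limma, and Gas5 did not (adjusted p = 0.166). In this fit 1.29% of all genes passed as lower in tumor and 0.557% as higher. With the probe set of the most accessions for each gene, Gas5 differed by -1.78 ± 0.20 (adjusted p = 0.00816), Taf1d by -1.22 ± 0.20 (adjusted p = 0.0302) and Snhg5 by -1.09 ± 0.20 (adjusted p = 0.0415) on the KO arrays, where 1.3% of all genes passed as lower. Array weights over the 10 arrays let arrays far from the fit of their group count for less, whatever their signal. In floxed mice these weights put the Gas5 tumor minus adjacent difference at 0.58, near its value without floxed tumor array 3 (0.53), an array that is not weak. With the weights all 3 hosts passed in KO (limma, adjusted p = 0.0358 for Gas5, 0.00138 for Taf1d and 0.00891 for Snhg5), where 3.19% of all genes passed as lower. The calls on KO arrays rested on few arrays: with the highest-mean probe sets, 3, 0 and 2 hosts passed without KO tumor array 1, 2 or 3, and 1 and 0 without KO adjacent array 1 or 2.

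In floxed epithelium no host passed. Gas5 read 5.55 to 7.69 in floxed tumor against 5.60 and 5.69 in floxed adjacent epithelium, a difference of 1.04 ± 0.54 (adjusted p = 0.457, limma). Taf1d differed by 0.25 ± 0.68 (adjusted p = 0.91) and Snhg5 by -0.51 ± 0.64 (adjusted p = 0.782), and 0.00502% of all genes passed. The tissue difference in KO minus that in floxed was -2.06 ± 0.76 for Gas5, -1.91 ± 0.96 for Taf1d and -0.58 ± 0.91 for Snhg5; it is made of the same KO minus floxed values that chose the hosts and is therefore given without a test. Over all 12 arrays, tumor minus adjacent was -0.20 ± 0.97 for Gas5, -0.83 ± 1.05 for Taf1d and -0.72 ± 0.41 for Snhg5, with an adjusted p of 1 for each; limma called 0 genes in all, and 513 had an unadjusted p under 0.05.

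**Figure D5:**
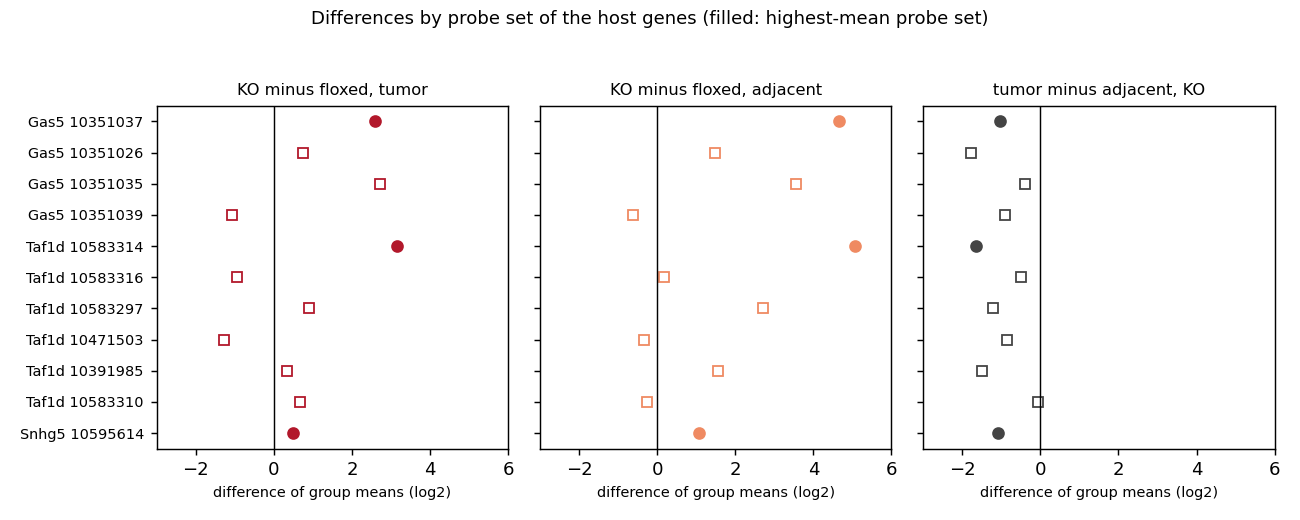
Difference of group means (log2) for each of the 11 distinct probe sets of Gas5, Taf1d and Snhg5, in 1 panel each for KO minus floxed tumor, KO minus floxed adjacent and KO tumor minus KO adjacent epithelium; filled points are the highest-mean probe set of a gene, open squares the others, and no error is drawn. Between the genotypes 8 of 11 points lie above 0 in either tissue, and between the tissues of KO mice all 11 lie below 0.

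None of the 7 snoRNAs passed in the tissue contrast in KO. On the KO arrays alone Snora44, whose KO minus floxed difference was large, differed between KO tumor and KO adjacent epithelium by 0.12 ± 0.19 (adjusted p = 0.841).

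Genes that work with the hosts were taken from lists. Of 33 measured protein-coding snoRNA hosts, 10 were lower in KO tumor than in KO adjacent epithelium on the KO arrays alone and none higher, where 1.29% of all genes passed as lower, with 30 below 0 and a median of -0.57 against 0.04 over all genes. The 368 calls over all genes on these arrays became 10 to 633 with 1 KO array left out, fewest without KO adjacent array 2 (10), KO tumor array 2 (56) and KO adjacent array 1 (64). Among the 10 lower coding hosts were the ribosomal protein genes Rpl23a (-1.48) and Rpl27a (-1.46), the nucleolar protein gene Ncl (-1.26) and the elongation factor gene Eef1b2 (-1.23). Of 21 genes for snoRNP proteins, which bind and stabilize snoRNAs, and their assembly factors, 4 were lower: Nop58 (-1.39), Fbl, the methyltransferase of box C/D snoRNPs (-1.36), Nop10 (-1.36) and Snu13 (-0.70). None of 19 genes of SL1 and RNA polymerase I, of 12 nonsense-mediated decay factors or of 7 other noncoding hosts passed. Over the 10 arrays none of these genes passed in this contrast.

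Some markers of other cells moved with this contrast too. On the KO arrays alone 3 of 15 leukocyte markers were lower in tumor, against 1.29% of all genes: Mcpt2 (-3.20), Mcpt1 (-2.97) and S100a9 (-0.93). The list as a whole did not follow them: 8 of the 15 lay above 0, with a median of 0.02 against 0.04 over all genes. The list mean, which includes these 3 genes, was 3.90 to 4.02 in KO tumor against 4.37 to 4.40 in KO adjacent epithelium. Of 14 fibroblast and matrix markers, Dcn (-1.23) was lower, with list means of 4.82 to 5.05 in KO tumor and 5.11 to 5.16 in KO adjacent epithelium. Of 12 epithelial markers Krt18 (-1.74) was lower and Vil1 (0.98) higher. The mean of 8 exocrine pancreas markers was 4.21 to 6.81 in KO tumor and 4.22 to 4.29 in KO adjacent epithelium. The part of these markers in the host genes' differences was not tested.

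The same lists were set between the genotypes, where the calls depended on single arrays: over all genes the 1209 calls in adjacent epithelium became 1 to 427 with 1 adjacent array left out. In adjacent epithelium 7 of 33 coding hosts were higher in KO than in floxed, where 2.91% of all genes were, with a median of 1.59. They included Eif4a1, a translation initiation factor gene (3.81), Tpt1 (3.34), the mitochondrial import receptor gene Tomm20 (2.38) and the splicing factor gene Sf3b3 (1.89). In tumor none passed and the median was 0.46. Both floxed adjacent arrays and floxed tumor arrays 1 and 2 were weak. Among all genes brighter than the median gene, the median difference was 0.41 in adjacent epithelium and 0.29 in tumor. The part of this in the lists' differences was not tested. Of the snoRNP genes 3 of 21 were higher in KO adjacent epithelium, Fbl (2.00), Snu13 (1.61) and Gar1 (1.52), and none in tumor. Of the SL1 and RNA polymerase I genes, Polr2l (2.22) and Taf1a, a partner of Taf1d in SL1 (1.57), were higher in KO adjacent epithelium, and Polr2h (2.29) in KO tumor. Of the decay factors, Rbm8a (1.35) and Casc3 (1.15), both of the exon junction complex, were higher in KO adjacent epithelium. Markers of other cells passed in the same fits. In KO adjacent epithelium Dcn (1.53), 1 of 14 fibroblast and matrix markers, was higher. So were the mast cell proteases Mcpt1 (2.53) and Mcpt2 (2.43), 2 of 15 leukocyte markers, where 2.91% of all genes were higher. Of those 15 markers 6 lay above 0, with a median of -0.27 against -0.04 over all genes. In tumor Col3a1 (1.21) was higher and S100a8 (-1.39) lower in KO. The part of these markers in the lists' differences was not tested.

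The genes closest in pattern to Gas5 were found by the root mean square difference of log2 values centred on each gene's mean over the 12 arrays. They were 4932438A13Rik (0.51), the snoRNA gene Snord42b (0.52), Chd7 (0.55), Hnrnpl (0.62) and the snoRNA gene Snora62 (0.64), where the median over all genes was 1.85. Taf1d was at rank 12 (0.80) and Snhg5 at rank 2088. For Taf1d the closest were the ribosomal protein gene Rpl37a (0.62), Eif4a1 (0.67), Ube2l3 (0.72), Tmed2 (0.72) and Arf1 (0.78), with a median of 2.04 over all genes, Gas5 at rank 7 and Snhg5 at rank 995.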

How the data were processed

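RNA of 12 dissected samples was labelled with biotin after a GeneChip WT Pico kit, per the labels' protocols. The deposited values were log2 expression, and the submitters' processing notes name Partek and RMA, a background-correcting and summarizing method for arrays, without versions; other steps are not given in the sources used here. Of 35556 probe sets, 21789 carried 1 gene symbol in the platform annotation, 1621 several and 12146 none. Each of 19938 genes took its highest-mean probe set. The 10 arrays whose labels give 1 genotype entered a 4-group linear model (limma 3.58.1, R 4.3.3; lmFit, eBayes, two-sided, Benjamini-Hochberg over all genes); the tissue contrast over all arrays used 12. A call is an adjusted p under 0.05. Arrays of weak signal had a median correlation with the others under 0.7.

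The host genes and the gene lists were chosen with earlier results of these data known. Named genes were the 8 hosts, the snoRNAs inside them with a probe set of their own, the 5 genes nearest in pattern to Gas5 and to Taf1d, and up to 4 called genes of each list by size of difference. The fits on KO arrays with the probe set of most accessions, or with each KO array left out, were added after the data were seen. Same-numbered KO and floxed tumor arrays deviated together (correlations across genes of 0.105, 0.121 and 0.348), which met the rule of every pair above 0.1, although KO tumor array 1 correlated better with floxed tumor array 2 (0.246). Runs with the number as a block, over tumor and adjacent arrays alike, are therefore given beside the main fits. The number used was that of the title. For both KO adjacent arrays the description gives a different number, and a block by that number was not run. The host differences, standard errors and p-values in the Results come from fits without the block. No label says what a number shares. The steps were tested on simulated data.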

Additional observations from a re-analysis of the deposited data

Results flagged for a closer look

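Each host and snoRNA was screened for 1 array far from the rest of its tissue, in 20 sets of tumor or adjacent arrays, of which chance alone flags about 1 in 20. Snord22, inside Snhg1, read 6.692 in floxed tumor array 3, a gap of 0.666 of the range of the tumor arrays. In adjacent epithelium Snord22 read 6.565 in conflict array 1, a gap of 0.749 of the range. Snora16a, inside Snhg12, read 5.218 in floxed tumor array 3, a gap of 0.731 of the range. Floxed tumor array 3 and conflict array 1 also had the highest means of the exocrine pancreas markers, 8.11 and 7.72, against 4.21 to 6.81 on the other arrays, and the part of this in these values was not tested.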

How the results depend on the processing

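KO minus floxed differences of Gas5 and Taf1d were above 0 under each alternative run, from 0.76 to 3.10 and from 0.43 to 4.05 in tumor and from 1.49 to 4.80 and from 1.51 to 5.45 in adjacent epithelium. These runs reuse the values for which the genes were chosen, so their shared sign tests nothing. Single probe sets of both genes lay below 0 in tumor. Snhg5 in tumor was at -1.22 without weak-signal arrays and from -0.0023 to 1.34 with each array left out, lowest without floxed tumor array 1 and highest without floxed tumor array 3. Tumor minus adjacent in KO was below 0 for the 3 hosts under each alternative, and for Gas5 came to -0.0050 with the conflicting labels read by title. For tumor minus adjacent in floxed mice the sign turned for Taf1d with quantile normalization (-0.10), the mean of all probe sets (-0.066), array weights (-0.27), the replicate block (-0.24), the labels by title (-0.78) or by characteristic (-0.66), and from -0.65 to 0.77 with each array left out. It turned for Gas5 with the mean of all probe sets (-0.0028), the labels by title (-0.40) and the probe set of most accessions (-1.05). The genotype difference in this contrast turned for Snhg5 with quantile normalization (0.082) and ran from -1.06 to 0.27 with each array left out, highest without floxed tumor array 3, and for Gas5 with the labels by title (0.40). Over all arrays Gas5 ran from -0.72 to 0.28 with each array left out.

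Counts of genes called depended on the settings. Between KO and floxed tumor, 215 genes became 13 with quantile normalization, 14 with each array scaled, 98 without the dimmest 30% of genes, 61 with the trended robust variance, 2907 with array weights, 8 with only the arrays compared, 1181 at an adjusted p under 0.1, 782 with the replicate block, 0 with the labels by title (limma, with 3813 genes at an unadjusted p under 0.05), 132 by characteristic, 3866 without weak-signal arrays (floxed tumor is then 1 array, assumed to vary like the other groups), and from 10 without KO tumor array 1 or 2 to 5793 without floxed tumor array 3. In adjacent epithelium the 1209 became 128 with quantile normalization, 164 with each array scaled, 454 without the dimmest genes, 4034 with array weights, 3435 with only the arrays compared, 3346 at the looser threshold, 2450 with the replicate block, 1 by title and 48 by characteristic, and 1 to 427 with each array left out. For tumor minus adjacent in KO, 4 genes became 0 with either scaling, with the labels by characteristic, or with any 1 KO array left out of the 10 (limma, with 151 to 383 genes at an unadjusted p under 0.05), 7 with the mean of all probe sets or the looser threshold, 1042 with array weights (3 hosts among them), 368 with only the KO arrays or without weak-signal arrays (2 hosts) and 369 with the probe sets of most accessions on the KO arrays (3 hosts). On the KO arrays alone, leaving out KO tumor array 1, 2 or 3 gave 313, 56 and 633 genes with 3, 0 and 2 hosts, and leaving out KO adjacent array 1 or 2 gave 64 and 10 genes with 1 and 0 hosts. In floxed mice 1 gene became 0 with the trended robust variance, array weights, only the arrays compared, the replicate block or either reading of the labels (751 to 2477 genes at an unadjusted p under 0.05), and 0 to 343 with each array left out. Over all arrays 0 became 127 with array weights, and the genotype difference called 0 to 1 with each array left out. Without weak-signal arrays no floxed adjacent array is left, so contrasts that need one had no such value. The cause of these changes was not tested. Arrays with the same title number, other than KO and floxed tumor, did not deviate together (correlations from -0.13 to 0.06). Beyond the values above the block by title number changed no call of a host.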
